A study of Mus musculus with 9 samples.

Results

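Noxa and its BCL-2 family relatives were followed on arrays of 6 alveolar rhabdomyosarcomas of the mouse and 3 skeletal muscles of wild-type mice. The members are Pmaip1, which encodes Noxa, with Bbc3, Bax, Bak1, Bid, Bcl2, Bcl2l1, Bcl2l11, Mcl1 and Bcl2a1d, and a probe set was taken for a member where the platform annotation gives that gene symbol alone. Of the 10 genes listed, 8 had such a probe set, giving 22 of the 22626 probe sets tested. Bax was not analysed here, and Bcl2a1d appeared only on probe sets annotated to several paralogs, which are described separately. The group was chosen by the Pmaip1 signal, which was much higher in the tumours, so that difference is given as a description with no test.

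BCL-2 family proteins decide whether the outer mitochondrial membrane is opened during apoptosis. BAX and BAK form the pores, while BCL-2, BCL-XL, MCL-1 and A1 hold them in check. The BH3-only proteins, among them NOXA, PUMA, BIM and BID, engage the protective members and so release or activate the pore formers. NOXA binds MCL-1 and A1 in preference to the others, and its gene was described as a target of p53. Alveolar rhabdomyosarcoma is a childhood soft tissue sarcoma whose cells express part of the skeletal muscle programme.

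A1 in the mouse comes from several near-identical genes on chromosome 9, and stretches upstream of their starts are shown because they differ little between paralogs. Lying before the annotated starts, they do not show why the array reads the paralogs together. No transcript or probe sequence was compared. The sequences are RefSeq's for GRCm38.p6, written 5′ to 3′ on the strand of the gene, and capitals mark bases that differ from, or are absent in, the paralog to which a stretch was aligned. Bcl2a1d and Bcl2a1a were marked against each other, and Bcl2a1b was marked against Bcl2a1d. The Bcl2a1d stretch is chr9:88731851-88732050 on the minus strand, the Bcl2a1a stretch is chr9:88956714-88956919 on the plus strand, and the Bcl2a1b stretch is chr9:89199023-89199228 on the plus strand. The Bcl2a1d and Bcl2a1a stretches end at the base before the annotated start, and the Bcl2a1b stretch runs from 250 to 45 bases before it.
Bcl2a1d: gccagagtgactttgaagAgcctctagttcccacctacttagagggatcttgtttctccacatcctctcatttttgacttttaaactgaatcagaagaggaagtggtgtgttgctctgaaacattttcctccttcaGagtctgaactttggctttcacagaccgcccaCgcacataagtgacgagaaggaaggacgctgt
Bcl2a1a: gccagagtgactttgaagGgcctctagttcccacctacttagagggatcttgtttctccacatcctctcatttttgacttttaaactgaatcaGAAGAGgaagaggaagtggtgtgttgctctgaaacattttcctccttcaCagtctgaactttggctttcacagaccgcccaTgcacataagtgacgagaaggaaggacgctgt
Bcl2a1b: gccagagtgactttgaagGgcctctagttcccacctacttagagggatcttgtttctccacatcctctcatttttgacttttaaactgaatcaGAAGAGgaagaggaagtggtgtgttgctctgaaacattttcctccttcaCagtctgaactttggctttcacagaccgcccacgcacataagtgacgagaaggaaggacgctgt
The ends of each stretch were set at bases that the paralogs share, so the matches at the ends were fixed in advance. Bcl2a1a matched Bcl2a1d in 197 of 206 aligned columns (95.6%), with 3 mismatches and 6 gap bases. Bcl2a1b matched it in 198 of 206 columns (96.1%), with 2 mismatches and the same number of gap bases. The letters GAGGAAGT, a purine-rich box of the kind bound by the myeloid factor PU.1, were searched on both strands and occurred 1 time in each stretch. The same letters occurred in 802 of 32851 RefSeq windows of 250 bases upstream of a start (2.44%), and a match is a description of the letters only. The stretches are shorter than these windows and near-identical, so their matches are not separate occurrences.

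Total RNA was hybridised to Affymetrix arrays, 1 array per sample, and each deposited value is the MAS5 signal of a probe set, a background-corrected intensity in arbitrary units. The labels give the tumours as alveolar rhabdomyosarcoma and the muscles as wild-type control tissue. The sources used here do not state genotype, strain, age, anatomical site or whether samples came from separate animals, so p-values measure only the spread between these samples, which may be technical. On 7 arrays the trimmed mean signal was 500.2, whereas it was 294.3 on muscle 1 and 140.9 on muscle 3, and all arrays were multiplied to 500.2 before any comparison. The 3′ over 5′ signal ratio of the Gapdh control probe sets was 1.93 to 9.39 in the tumours, while muscle 1 had 1.68, muscle 2 had 57.2 and muscle 3 had 33.0. The same ratio for Actb was 3.35 to 6.78 in the tumours and 1.87, 4.06 and 4.35 in muscles 1 to 3, so muscles 2 and 3 lay within the tumour range on that ratio. The hybridisation control cre was 32500 on tumour 1 and 26648 on tumour 4 and 5345 to 13348 on the other arrays. Summed adult muscle markers, such as Ckm and Acta1, were 194688 to 260640 in the muscles, 153238 in tumour 1 and 1741 to 29789 in the other tumours. Summed adipocyte markers, such as Adipoq, were 12521 to 18862 in the muscles and 396 to 5102 in the tumours. Of their 6 probe sets 5 were called lower by limma (median difference -3.23), beside 7.53% called lower over all probe sets. The part of these differences in the results was not tested. In whole tissue, fewer cells of a type and less RNA per cell cannot be told apart.

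Pmaip1 was near the bottom of the signal range in muscle and bright in every tumour. Its only probe set, 1418203_at, read 1031, 1057, 390, 2377, 2749 and 7014 in tumours 1 to 6, and 7.6, 6.5 and 6.1 in muscles 1 to 3. The lowest tumour therefore lay far above the highest muscle, and the groups did not overlap. The mean was 2436 ± 2413 (SD, n = 6) in the tumours and 6.7 ± 0.8 (SD, n = 3) in the muscles. On the scale used throughout, log2(signal + 16), the tumours were 6.19 higher, which is 73.2-fold on that offset scale. Because the muscle signals were no brighter than the lowest 2.1% of their arrays, the fold depends on the offset, with a log2 difference of 7.74 at an offset of 1 and 4.61 at an offset of 64. The difference ranged from 5.78 to 6.60 when each array was left out in turn.

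Pmaip1 also varied widely among the tumours themselves. The highest tumour, number 6, was 18.0 times the lowest, number 3, and the SD of the log2 values over the 6 tumours was 1.42. The tumours sat at or above the 67.6th percentile of their arrays. Among 7284 probe sets of other genes that were bright and variable in the tumours, the patterns most like Pmaip1 over the 6 tumours, ranked by Pearson r of log2 values, were those of Rian (r = 0.992), Kdm3a (0.985), Isca1 (0.984), Niban1 (0.979) and Il1r2 (0.973). These r values are the highest of many computed over 6 arrays and are given as a description. None of these 5 probe sets was called higher in the tumours by limma. Rian, an imprinted noncoding RNA, differed by 0.43 ± 0.57 (SE; adjusted p = 0.71, limma), and Isca1, an iron-sulphur cluster assembly gene, was lower in the tumours by -2.18 ± 0.48 (adjusted p = 0.0063, limma).

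**Figure D1:**
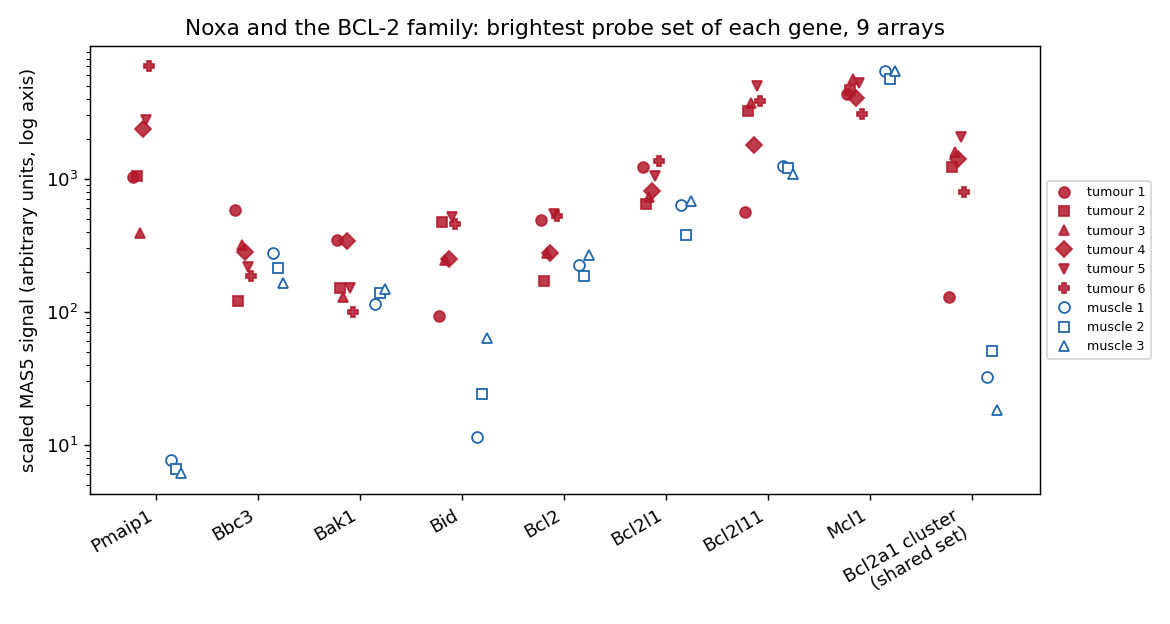
Scaled MAS5 signal of the brightest probe set of each BCL-2 family gene (log axis, arbitrary units) for 6 tumours (filled red) and 3 muscles (open blue), 1 symbol per array; levels of different probe sets are not comparable. Pmaip1 lies between 390 and 7014 in the tumours and between 6.1 and 7.6 in the muscles, and Bid and the shared Bcl2a1 probe set also do not overlap between groups.

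Among the other BH3-only genes, Bid rose and Bbc3 and Bcl2l11 did not pass the test. Bid encodes the protein that death receptor signalling cleaves to reach the mitochondrion. Its probe set 1417045_at read 93.3, 474, 243, 249, 513 and 454 in tumours 1 to 6, and 11.4, 24.1 and 63.0 in the muscles. Every tumour exceeded every muscle, with the smallest gap between tumour 1 and muscle 3. The mean was 338 ± 167 (SD, n = 6) against 32.8 ± 26.9 (SD, n = 3). The log2 difference was 2.81 ± 0.56 (SE; adjusted p = 0.0035, limma), a 7.04-fold difference on the offset scale. The call held in each fit that left out 1 array (adjusted p between 0.00046 and 0.027) and did not hold for tumours 1 to 3 against the muscles alone (log2 difference 2.44, adjusted p = 0.063). A second Bid probe set, 1448560_at, was dim in both groups, at 7.2 to 23.8 in the tumours and 12.7 to 17.3 in the muscles, and its difference was -0.13 ± 0.29 (adjusted p = 0.84). The pair of Bid probe sets thus disagreed, and the rise rests on the brighter one.

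Bbc3 encodes PUMA, another p53-induced BH3-only protein. Its probe set 1423315_at read 577, 121, 317, 283, 215 and 185 in tumours 1 to 6, and 277, 212 and 165 in the muscles. The groups overlapped, with tumour 1 highest and tumour 2 lowest of all arrays. The log2 difference of 0.23 ± 0.47 (SE; adjusted p = 0.83, limma) was smaller than the SD of 0.72 over the tumours.

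Bcl2l11 encodes BIM, a BH3-only protein that can engage all the protective members. On its brightest probe set, 1456005_a_at, the tumours read 562, 3248, 3697, 1802, 5025 and 3842, and the muscles read 1255, 1212 and 1083. Tumour 1 lay below every muscle and the other 5 tumours lay above every muscle. The log2 difference was 1.07 ± 0.55 (SE; adjusted p = 0.24, limma). It was 1.49 without tumour 1 (adjusted p = 0.0064) and 1.71 without tumours 1 and 4 (adjusted p = 0.00083), so the call turned on tumour 1. Tumour 1 is also the tumour with the highest adult muscle marker sum, at 153238, and whether that bears on its Bcl2l11 signal was not tested. The other 4 Bcl2l11 probe sets differed by 0.00 to 1.01 and none passed the test. On 1435448_at the tumours ranged from 669 to 1467 and the muscles from 475 to 764, with a difference of 0.65 ± 0.33 (adjusted p = 0.23).

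Of the pore formers among the listed members, only Bak1 was measured. Its brighter probe set, 1418991_at, read 344, 152, 128, 341, 151 and 100 in tumours 1 to 6, and 115, 138 and 149 in the muscles. Tumours 1 and 4 stood above the rest and tumour 6 lay below every muscle. The log2 difference was 0.41 ± 0.47 (SE; adjusted p = 0.66, limma), and it was -0.02 without tumours 1 and 4, the same arrays whose hybridisation control was high. The second probe set, 1425716_s_at, overlapped between groups too, with a difference of 1.08 ± 0.64 (adjusted p = 0.32).

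Mcl1, the main partner of NOXA, did not pass the test on any of its 6 probe sets, the brightest of which lay at or above the 95.4th percentile of every tumour array. On 1437527_x_at the tumours read 4341, 4662, 5627, 4066, 5244 and 3073, and the muscles read 6456, 5617 and 6486. Only tumour 3 reached the lowest muscle. The log2 difference was -0.48 ± 0.32 (SE; adjusted p = 0.40, limma). On 1456243_x_at, all tumours (2462 to 4387) lay below all muscles (5112, 5074 and 5081), with a difference of -0.55 ± 0.32 (adjusted p = 0.30). On 1456381_x_at the tumours (851 to 1947) again lay below the muscles (2778, 2664 and 2098), with a difference of -0.79 ± 0.33 (adjusted p = 0.13). The remaining 3 probe sets overlapped between groups and differed by -0.27, 0.01 and 0.24. The sign of these values depended on the scaling. With the signals as deposited, where the median of all probe sets moved from 0.11 to 0.75, the differences on those named probe sets were 0.38, 0.31 and 0.07. Tumour 6, which had the highest Pmaip1 signal, had the lowest tumour signal on each of them, at 3073, 2462 and 851.

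Bcl2 and Bcl2l1, which encode BCL-2 and BCL-XL, did not pass the test either. The Bcl2 probe set 1422938_at read 487, 170, 274, 277, 546 and 522 in tumours 1 to 6, and 223, 187 and 268 in the muscles. Tumour 2 lay below every muscle and the other 5 tumours lay above every muscle, with tumours 3 and 4 close to muscle 3. The difference was 0.61 ± 0.43 (SE; adjusted p = 0.41, limma). The brightest Bcl2l1 probe set, 1420888_at, read 1229, 651, 725, 805, 1053 and 1353 in the tumours, and 639, 380 and 684 in the muscles. Only tumour 2 fell within the muscle range, and the difference was 0.75 ± 0.35 (adjusted p = 0.19). The other 3 Bcl2l1 probe sets were dim, at 5.3 to 118 over all arrays, and differed by 0.00 to 0.37.

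Over the 21 probe sets of the 7 genes other than Pmaip1, 1 passed the test in the higher direction and 0 in the lower, at an adjusted p under 0.05 from limma. By unadjusted p under 0.05 from limma the counts were 1 higher and 1 lower. By unadjusted p from the exact rank-sum test they were 3 and 3, but its smallest adjusted p in these data was above the threshold. Over all probe sets tested, 7.88% were called higher and 7.53% lower (15.4% in all). Since the genes were gathered from this same comparison, nothing is read from the count. Of the 21 probe sets, 15 had a difference above 0 and 6 below it, with a median of 0.24 against 0.11 for all probe sets. The groups did not overlap on 1 probe set in the higher direction and on 2, both of Mcl1, in the lower, against 10.1% and 9.70% of all probe sets.

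**Figure D2:**
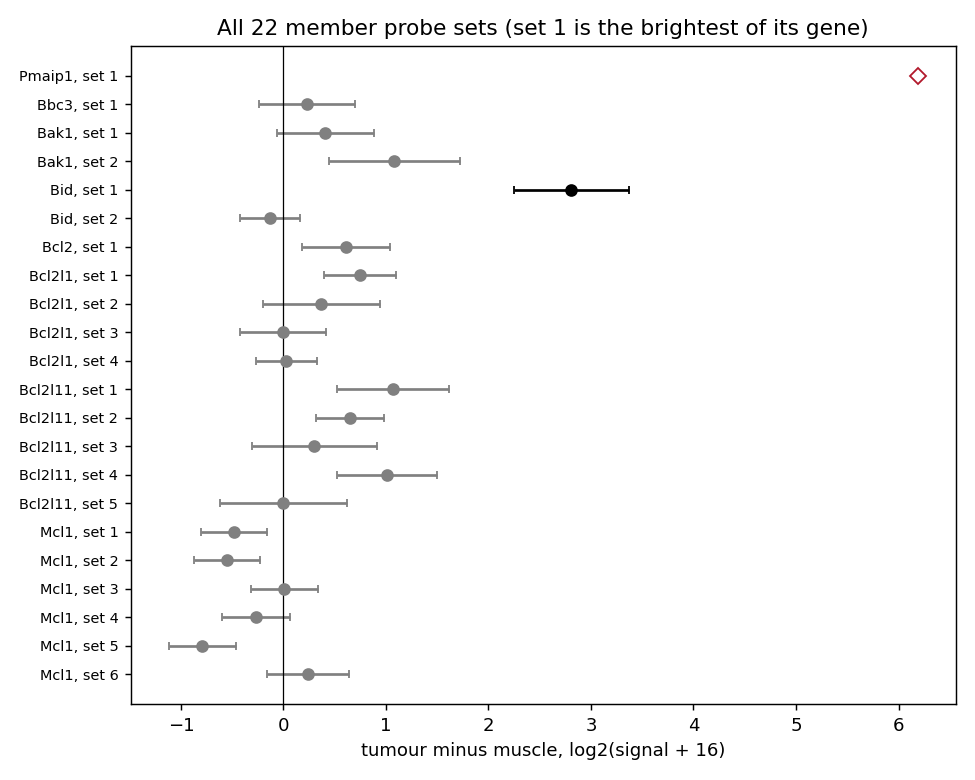
Difference between tumours and muscles in log2(signal + 16) for the 22 probe sets, with bars of 1 SE from limma (6 tumours, 3 muscles). Bid set 1 at 2.81 is black because it passed the test, grey sets did not pass, and the open diamond is Pmaip1 at 6.19, shown with no error because it chose the group.

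A1 was read by probe sets annotated to Bcl2a1a, Bcl2a1b and Bcl2a1d together, so the signal cannot be assigned to 1 of them. The annotation of 1450812_at names Bcl2a1c as well. A1 is an NF-kB-induced survival protein best known from blood cells. On the shared probe set 1419004_s_at the tumours read 129, 1225, 1598, 1400, 2050 and 796, and the muscles read 32.2, 50.8 and 18.1. Every tumour lay above every muscle, and tumour 1 stood well below the other tumours. The difference was 4.30 ± 0.68 (SE; adjusted p = 0.0007, limma), or 19.6-fold on the offset scale, and the call held in each fit that left out 1 array (adjusted p between 4.6e-06 and 0.0076). The other 2 shared probe sets were dimmer, overlapped between groups and did not pass. Their differences were 0.63 ± 0.50 (adjusted p = 0.49) on 1437913_at and 0.29 ± 0.45 (adjusted p = 0.76) on 1450812_at.

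Most myeloid markers rose as well. Of 21 probe sets of 15 myeloid genes, 17 were called higher in the tumours and 0 lower, with a median difference of 2.48, beside 7.88% called higher over all probe sets, and none was at 0 in any array. Of the 15 genes, 13 had a call. Lyz2, the macrophage lysozyme, differed by 1.86 (adjusted p = 0.07, limma), and the integrin gene Itgam by -1.01 (adjusted p = 0.30, limma), with 4 tumours below every muscle. The summed signal of all 21 myeloid probe sets was 18906 to 68866 in the tumours and 5059 to 8068 in the muscles. Within the tumours the markers did not all follow A1. Mpeg1, a macrophage perforin, and Ptprc, the pan-leukocyte CD45, were lowest in tumour 1 at 182 and 152, as was the shared Bcl2a1 probe set. The complement gene C1qb on 1437726_x_at (9067) and the macrophage receptor Csf1r on 1419872_at (26580) were highest in tumour 1. No T cell marker probe set was called, of 8, and their summed signal was 316 to 1276 in the tumours and 378 to 495 in the muscles. The part of myeloid cells in the A1 signal was not tested.

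**Figure D3:**
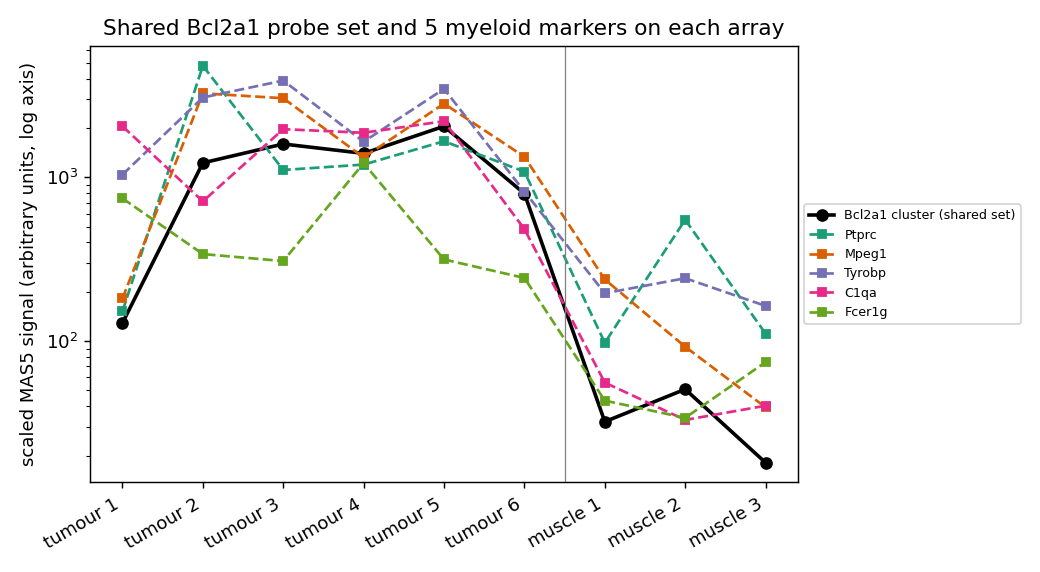
Scaled MAS5 signal (log axis, arbitrary units) of the shared Bcl2a1 probe set (black) and of 5 myeloid markers (coloured, dashed) on the 6 tumour and 3 muscle arrays, with lines joining the arrays only to guide the eye. The shared Bcl2a1 probe set, Mpeg1 and Ptprc are lowest among the tumours in tumour 1, at 129, 182 and 152, while C1qa and Fcer1g are not.

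The wider death machinery was taken from 7 lists covering 71 measured genes and 138 probe sets. Of these probe sets 11 were called higher, 17 lower and 110 neither, with a median difference of 0.09, beside 7.88% and 7.53% called over all probe sets. Of the 28 called probe sets, 10, from 7 genes, kept the call in all 9 fits that left out 1 array. Of the other 18, 17 lost it without muscle 3, many of them without another array as well. Calls over all probe sets also fell, from 3488 to 1700 without muscle 3, 1983 without muscle 2 and 2375 without muscle 1. With the signals as deposited, 13 of the 17 lower probe sets lost the call.

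Among the other BCL-2 family genes, 12 of 18 were measured. Of their 22 probe sets 1 was called higher and 2 lower, beside 7.88% and 7.53% of all probe sets. Bok, a pore former of the BAX type, was 307 to 1255 in the tumours (median 679) and 179, 141 and 58.4 in the muscles, without overlap. The difference was 2.25 ± 0.47 (SE; adjusted p = 0.0047, limma; 0.048 without muscle 3). The lower genes were the mitochondrial proteins Bcl2l13 (-1.21, adjusted p = 0.027) and Bnip3 (-1.45, adjusted p = 0.047), and without muscle 3 their adjusted p was 0.15 and 0.19. The protective gene Bcl2l2 differed by -0.77 (adjusted p = 0.19) on its brightest probe set, and Bad, a BH3-only gene, by 1.24 (adjusted p = 0.088).

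Downstream of the mitochondrion, 2 of 22 probe sets for caspases and apoptosome parts were called higher and 6 lower, over 13 of 15 genes. The shares over all probe sets were 7.88% and 7.53%. Cytochrome c itself, Cycs on 1422484_at, was 1006 to 1508 in the tumours (median 1240) and 10834, 10518 and 12385 in the muscles, without overlap. The difference was -3.17 ± 0.29 (SE; adjusted p = 1.8e-05, limma), the largest of its 3 probe sets. The brightest, 1456071_a_at, overlapped (2422 to 12168 against 11760 to 12968) and was not called, at -1.19 ± 0.49 (adjusted p = 0.12), and 1422483_a_at differed by -1.34 ± 0.38 (adjusted p = 0.026; 0.061 without muscle 3). The mitochondrial nuclease gene Endog on 1421097_at was 29.6 to 125 in the tumours and 509, 364 and 378 in the muscles, a difference of -2.45 ± 0.49 (adjusted p = 0.0034). The brighter Endog probe set, 1438317_a_at, overlapped (79.0 to 962 against 737 to 1342). It was called lower at -2.15 ± 0.62 (adjusted p = 0.029), which became 0.095 without muscle 3. Aifm1 (-1.21) and Dffa (-1.27) were called lower as well, both at an adjusted p of 0.034, which became 0.19 and 0.12 without muscle 3. Apaf1, the apoptosome scaffold, differed by 1.37 ± 0.37 (adjusted p = 0.022; 0.078 without muscle 3) on 1452870_at and by 0.60 on 1450223_at (adjusted p = 0.57). The executioner caspase gene Casp6 differed by 1.92 ± 0.51 (adjusted p = 0.020; 0.056 without muscle 3).

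Inhibitor of apoptosis genes had 2 of 16 probe sets called higher and 0 lower by limma, over 8 of 9 genes. Among all probe sets these shares were 7.88% and 7.53%. Birc5, which encodes survivin, a protein of dividing cells, was 436 to 1771 in the tumours (median 1057) and 151, 33.2 and 23.8 in the muscles. The groups were well apart, with a difference of 3.85 ± 0.51 (SE; adjusted p = 0.00019, limma). Naip5 was called higher too (1.54, adjusted p = 0.029; 0.16 without muscle 3). In the death receptor pathway 1 of 16 probe sets was called, that of the adaptor gene Tradd (1.76, adjusted p = 0.025; 0.19 without muscle 3).

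Other p53 target genes were called in both directions. Of 21 probe sets of 12 genes, 1 was called higher and 3 lower, beside 7.88% and 7.53% of all probe sets. Plk2, a stress-induced kinase, was 1398 to 2868 in the tumours (median 1965) and 204, 371 and 594 in the muscles, a difference of 2.38 ± 0.37 (SE; adjusted p = 0.0006, limma). All 3 lower probe sets were of Ccng1, cyclin G1, whose brightest probe set was 648 to 1708 in the tumours and 12433, 16100 and 15197 in the muscles, a difference of -3.97 ± 0.38 (adjusted p = 2.2e-05). The arrest gene Cdkn1a differed by 1.23 (adjusted p = 0.086) and the p53 ligase gene Mdm2 by -0.94 (adjusted p = 0.091), neither called.

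Genes described as inducers of Noxa transcription had 4 of 22 probe sets called higher and 0 lower by limma, over 10 genes. The higher calls came from 3 genes, and 7.88% of all probe sets were called higher. Myc was 292 to 724 in the tumours (median 365) and 104, 133 and 47.0 in the muscles, a difference of 2.01 ± 0.43 (SE; adjusted p = 0.0054, limma; 0.053 without muscle 3). The cell cycle factor E2f1 was called higher on 2 probe sets, at 2.24 (adjusted p = 0.0074) and 1.89 (adjusted p = 0.0064), which became 0.057 and 0.061 without muscle 3. Ddit3, which encodes the stress factor CHOP, differed by 1.65 (adjusted p = 0.031), and lost the call without muscle 1, without muscle 2 and without tumours 3, 4 or 5 in turn (adjusted p up to 0.21). Among genes that turn over MCL-1 or sit in the outer membrane, 6 of 19 probe sets were called lower and 0 higher. Lower calls made up 7.53% of all probe sets. The channel gene Vdac1 on 1415998_at was 1219 to 1765 in the tumours and 4897, 6321 and 7981 in the muscles, a difference of -2.10 ± 0.30 (adjusted p = 0.00034), and 2 more of its 5 probe sets were called lower. Its brightest, 1436992_x_at, overlapped (5790 to 13440 against 10642 to 15657) and was not called, at -0.69 (adjusted p = 0.28), nor was the dim 1437452_x_at, at 0.05. Vdac3 (-1.48, adjusted p = 0.013; 0.074 without muscle 3) was called lower too. The probe sets of Usp9x, the MCL-1 deubiquitinase gene, all had a difference below 0 except 1450039_at. Of 7, the lower calls were 1428193_at (-1.66, adjusted p = 0.020; 0.11 without muscle 3) and 1428194_at (-1.09, adjusted p = 0.033; 0.12 without muscle 3). On 1420922_at all tumours (194 to 389) lay below all muscles (462 to 552), with a difference of -0.83 ± 0.37 that was not called (adjusted p = 0.16). On 1450039_at all tumours (166 to 275) lay above all muscles (96.3 to 122), with a difference of 0.98 ± 0.38 that was not called (adjusted p = 0.11).

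**Figure D4:**
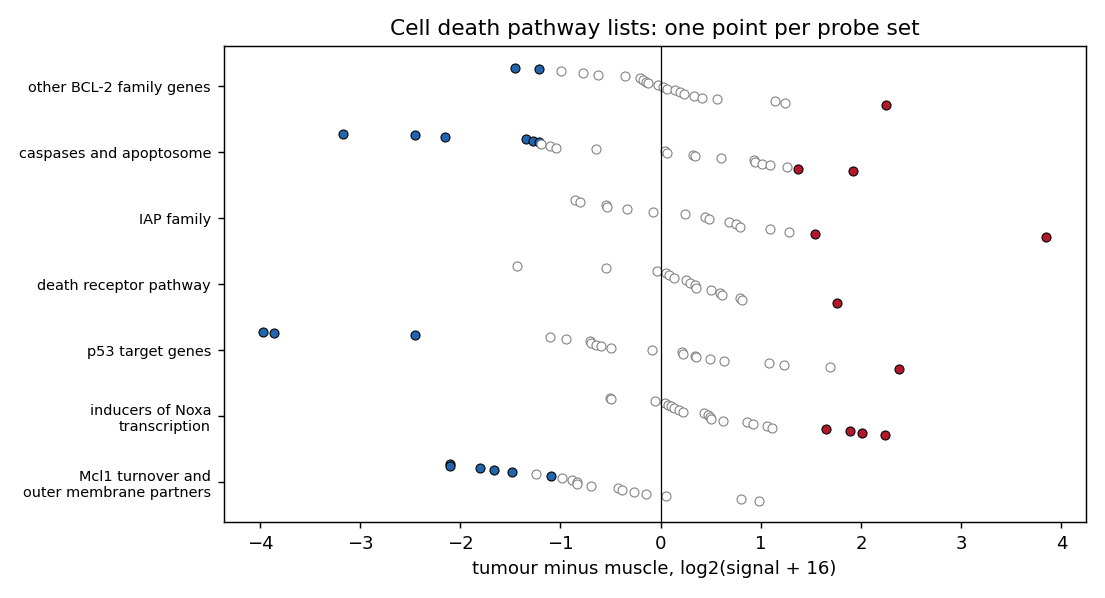
Difference between tumours and muscles in log2(signal + 16) for the 138 probe sets of the 7 lists, 1 point per probe set, red where called higher, blue where called lower and open where not called. Birc5 at 3.85 is the rightmost point and Ccng1 at -3.97 the leftmost.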

How the data were processed

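The authors deposited signal intensities computed with MAS5 (per the submitters' processing notes, which state no version). Per the labels' protocols, RNA isolation used Trizol and RNAeasy, and biotin was the label. The MAS5 scaling target and the scan dates are not given by the sources at hand, and detection calls were not used.

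After removal of 64 controls from 22690 probe sets, the platform annotation named 1 gene for 20380, several for 691 and none for 1555, and all 8 measured member genes matched the RefSeq gene table. Each array was multiplied to a mean signal of 500.2, trimmed by 2% at each end, with a factor of 1.6995 for muscle 1 and 3.5493 for muscle 3. Values were compared as log2(signal + 16) with lmFit and eBayes (trend) of limma 3.58.1 in R 4.3.3, 6 tumours against 3 muscles without covariates. Benjamini-Hochberg adjustment ran over all 22626 probe sets, with a call at an adjusted p under 0.05. A fold on the offset scale understates changes of dim probe sets, and the number of arrays limits the precision.

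The members and lists were chosen with earlier results of these data known. Every member probe set is given. From each list the called genes with the largest differences and non-overlapping groups are named, up to 4 in each direction, with Bcl2a1a, Bcl2a1b, Bcl2l2, Bad, Bok, Birc5, Apaf1, Cdkn1a and Mdm2 in any case, and 1 further gene is not reported here. Likeness to Pmaip1 was taken among probe sets brighter than the median over the tumours with an SD of at least 0.5, and it was not run for Bcl2a1d, which had no probe set of its own. On simulated data 200 of 22626 probe sets were changed, all drawn from those above the median brightness. The fit called 1.5% of those changed by 1 on the log2 scale, 43.3% of those changed by 2 and 90.9% of those changed by 4, with 5 false calls. The changed probe sets were far fewer than the 3488 called in the data, so these shares do not give the power of the reported fit. Alternatives covered scaling, the offset, a brightness filter, the unit of the test, the variance model, a rank-sum test, the replicate block and the arrays used.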

Additional observations from a re-analysis of the deposited data

Results flagged for a closer look

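A tumour stood apart from the other 5 on 14 of the 163 probe sets looked at by Dixon's test, which chance meets in about 1 of 20 groups. Tumour 1 was the one apart on 11 of them and tumour 2 on 2. Among the members, tumour 1 was highest on the dim Bid probe set 1448560_at (23.8, others 7.2 to 12.1), and tumour 2 was lowest on the Bcl2l11 probe set 1435449_at (66.5, others 171 to 242). On the shared Bcl2a1 probe set 1419004_s_at tumour 1 was lowest at 129 (others 796 to 2050).

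Tumour 1 was also lowest on 2 probe sets of the hypoxia factor Hif1a, at 146 on 1416035_at (others 495 to 995) and at 385 on 1427418_a_at (others 1817 to 3763). It was lowest for E2f1 on 1417878_at at 92.9 (others 218 to 337), for the death receptor caspase gene Casp8 at 208 (others 359 to 479), for the caspase inhibitor Xiap on 1437533_at at 230 (others 469 to 685) and for Apaf1 on 1450223_at at 30.2 (others 107 to 199). It was highest for the BH3-only gene Bik at 607 (others 61.4 to 125), for Bcl2l2 on 1430454_x_at at 273 (others 9.9 to 40.7) and for Ccng1 on 1450017_at at 459 (others 154 to 222). Tumour 2 was highest for the inhibitor of apoptosis gene Birc2 at 5275 (others 172 to 547), and tumour 5 was highest for the interferon factor Irf1 on 1448436_a_at at 4776 (others 1488 to 2239).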

How the results depend on the processing

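Leaving out each array in turn gave 1 to 2 member probe sets called higher (2 without tumour 1) and 0 called lower, 4 to 16 pathway probe sets called higher and 7 to 17 called lower, the fewest of both without muscle 3. The reported counts were 1, 0, 11 and 17. No alternative called a member lower. With the signals as deposited, 4 members and 26 pathway probe sets were called higher and 4 pathway probe sets lower. In that setting 87.0% of 4496 calls over all probe sets were higher, against 51.1% of 3488 after rescaling. With only probe sets above the median brightness, 0 members and 7 pathway probe sets were higher. That filter left 11 of the 21 member probe sets to test, and Bid 1417045_at was not among them. The called probe sets of Ddit3, Naip5 and Tradd and E2f1 1417878_at also fell below the filter, so they were not tested there. The exact rank-sum test called 0 of the 22626 probe sets, members and pathway genes included (3 members higher and 3 lower at an unadjusted p under 0.05), since its smallest adjusted p here is above the threshold. A weight for each group gave 17 pathway probe sets higher. The brightest probe set per gene gave 8 lower and averaging a gene's probe sets gave 9 lower, with fewer units tested. Without tumours 1 and 4, 2 members and 17 pathway probe sets were higher.

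The labels do not say whether the replicate numbers pair the samples. Same-number correlations were 0.213, 0.164 and -0.021. Muscles 1 and 2 correlated best with the tumour of their own number and muscle 3 did not, so these values do not settle it. The replicate block over tumours 1 to 3 and muscles 1 to 3 called 1 member and 5 pathway probe sets higher and 12 lower, and the same arrays without the block called 0, 3 and 8 (2432 against 1799 over all probe sets).

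No difference that turned sign had passed the adjusted threshold in the reported fit, and the largest of them was -0.79 for Mcl1 1456381_x_at. As deposited, the values were 0.19 for Bid 1448560_at, 0.64 for Bcl2l11 1426334_a_at, and 0.38, 0.31, 0.59 and 0.07 for Mcl1 1437527_x_at, 1456243_x_at, 1416880_at and 1456381_x_at. Mcl1 1448503_at was -0.10 after median centring and -0.26 for tumours 1 to 3 with and without the block. Bcl2l11 1456006_at was -0.09 in both of those and without tumours 1 and 4, and 1426334_a_at was 0.07 at an offset of 64. Bcl2l1 1420887_a_at and 1426191_a_at were -0.10 and -0.08 under quantile normalization and median centring, -0.06 and -0.01 at an offset of 1, and -0.35 and -0.16 without tumours 1 and 4. In that last setting Bbc3 was -0.10 and Bak1 1418991_at -0.02. Leaving out 1 array gave 0.00 to 0.42 for Bbc3, -0.20 to 0.16 for Bcl2l1 1420887_a_at, -0.05 to 0.78 for 1426050_at, -0.08 to 0.12 for 1426191_a_at, -0.25 to 0.42 for Bcl2l11 1426334_a_at and -0.10 to 0.16 for Mcl1 1448503_at. The cause was not tested. Signals near background, such as Pmaip1 in muscle, have no lower bound here.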

Other observations

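In tumour 2 the inhibitor of apoptosis genes Birc2 and Birc3 were bright together with their neighbours on chromosome 9, a stretch chosen after its values were seen. From Casp1 to Pgr, in the gene order of GRCm38.p6, 25 probe sets of 20 genes were measured. Tumour 2 was the highest of the 9 arrays on 13 of them, against 8.36% of all probe sets. It was more than 2-fold above the highest other array on 11 probe sets of 7 genes, against 1.18% of all probe sets. Birc2 read 5275 in tumour 2 and at most 612 elsewhere, and Birc3 read 1765 and at most 614. The transcriptional coactivator gene Yap1 read 20042 and at most 5487, Dcun1d5 read 12567 and at most 1880, and Tmem123 read 5918 and at most 1063. The growth factor gene Pdgfd read 747 and at most 71.2, and Casp12 read 1488 and at most 572. None of the 9 matrix metalloproteinase probe sets between them was highest in tumour 2. DNA copy number was not measured, and no cause was tested.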
